A study of Caenorhabditis elegans with 12 samples.

Results

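HIF-1 is the hypoxia-inducible transcription factor of Caenorhabditis elegans, and 10 genes of its hypoxia and sulfide response are described here, of 20212 genes in the table. They were taken by gene symbol as a list: hif-1 itself, its inhibitors egl-9, vhl-1 and rhy-1, the cysteine synthase family members cysl-1 and cysl-2, and the response genes phy-2, nhr-57, sqrd-1 and F22B5.4. This list and the lists below were chosen with earlier results of these data known. Their counts beside the shares of all genes are therefore descriptive. Messenger RNA of whole animals was sequenced in 12 libraries that form 4 groups of 3. The groups were strain MT12993, which carries the deletion mir-71(n4115), on sodium azide; MT12993 on water; the wild-type strain N2 on sodium azide; and N2 on water. All animals were grown on plates of NGM with a lawn of OP50 bacteria, were synchronised by a timed egg lay and were collected as L4 larvae. The deletion removes the microRNA gene mir-71 and is represented by 1 strain, and the sources used here give no azide dose for these libraries. The libraries of a group are biological replicates in the study's methods.

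Sodium azide blocks complex IV, the oxygen-consuming enzyme of the mitochondrial respiratory chain. In well-oxygenated worms the prolyl hydroxylase EGL-9 marks the HIF-1 protein, and VHL-1 then brings it to a ubiquitin ligase built on CUL-2 for degradation. HIF-1 activity is thus set largely at the protein level and need not follow its mRNA. RHY-1, a membrane protein related to acyltransferases, holds CYSL-1 in check. When hydrogen sulfide or the loss of RHY-1 frees CYSL-1, it binds EGL-9 and keeps it from acting on HIF-1. Among the genes known to be raised by HIF-1 are feedback inhibitors such as rhy-1 and enzymes that handle sulfide and cyanide, both of which inhibit complex IV as azide does.

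Each library held between 16828108 and 23937993 gene counts, with medians of 18846564 for the deletion on azide, 22690820 for the deletion on water, 20362714 for wild type on azide and 21554290 for wild type on water. Levels of a gene across libraries are given as CPM, its counts per 1000000 counts of the library after scaling by TMM. Fold changes are log2 values from edgeR with their standard errors (SE). A gene was called higher or lower where its p, adjusted by the Benjamini-Hochberg method over the 15048 genes tested, was below 0.05, and all 10 genes passed the filter on low counts. The microRNA itself is not measured here, but ppfr-1, the gene that hosts it, sorted every library with its labelled genotype. It lay between 541 and 796 CPM in the deletion on azide and between 426 and 465 CPM in the deletion on water, against 103 to 107 CPM in wild type on azide and 98.7 to 106 CPM in wild type on water. In a principal component analysis the third azide library of the deletion was the most distant on the second component, at -78.6 against -42.2 to 37.7. Markers of every tissue list examined were detected, and lists that follow developmental stage moved with azide. All 14 oogenesis markers rose in both genotypes, against 12.3% of all genes tested in the deletion and 27.5% in wild type. Their summed level was 995.5 to 2825 CPM in the deletion on azide, against 551.4 to 878.1 CPM in the deletion on water, and 5917 to 6256 CPM in wild type on azide, against 778.3 to 1243 CPM in wild type on water. The 6 vitellogenins, yolk protein genes of the adult intestine, were all called higher on azide in wild type and none was called in the deletion. For 4 of the 6 the azide effect was called lower in the deletion than in wild type, against 3.8% of all genes tested. The sum of all 6 was 238 to 2130 CPM in the deletion on azide, against 2226 to 2548 CPM in the deletion on water. In wild type it was 34570 to 44400 CPM on azide, against 4216 to 6191 CPM on water. The part of these stage-linked lists in the results below was not tested, and in RNA from whole animals fewer cells of a type and less RNA per cell cannot be told apart.

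Azide raised the same 5 of the 10 genes in both genotypes: sqrd-1, cysl-2, nhr-57, rhy-1 and F22B5.4. In the deletion strain these 5 were called higher on azide and 1 gene, phy-2, lower, where 12.3% of all genes tested were called higher and 11.6% lower. In wild type the 5 were called higher and 2 genes, phy-2 and vhl-1, lower, against 27.5% and 27.1% of all genes tested. All azide libraries lay above all water libraries for 6 genes in the deletion and 5 in wild type, and below them for 1 and 3. Over all genes tested the shares above were 18.3% and 33.6%, and the shares below 17.5% and 34.2%. The median log2 fold change of the 10 genes was 0.77 in the deletion, where the median of all genes tested was 0.04, and 0.44 in wild type, where it was -0.05. hif-1, egl-9 and cysl-1 passed the test in neither genotype.

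**Figure D1:**
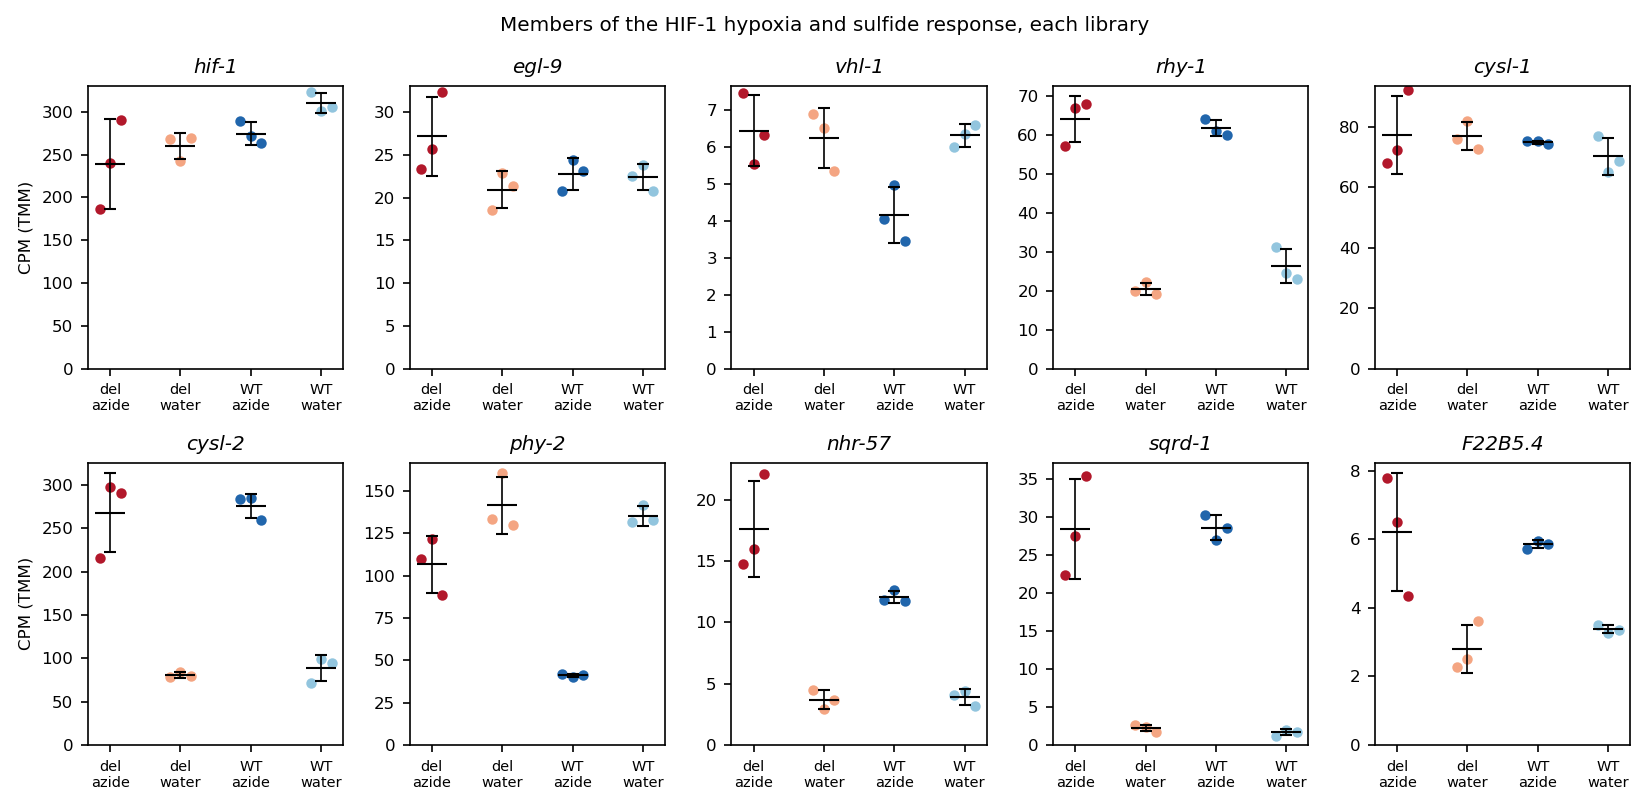
Level of each of the 10 genes in each library (points; CPM after TMM scaling, each vertical axis from 0) with the group mean and SD (bars, 3 libraries a group); "del" is the mir-71 deletion and WT is wild type. For sqrd-1, cysl-2, nhr-57, rhy-1 and F22B5.4 every azide library lies above every water library of its genotype, and phy-2 is lowest in wild type on azide, at 40.2 to 42 CPM.

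hif-1 lies on chromosome V at 20780502-20784861, plus strand (coordinates of all 10 genes are those of the deposited table, WBcel235). It was measured at 186, 240 and 290 CPM in the deletion on azide, against 268, 242 and 269 CPM in the deletion on water. Wild type had 289, 272 and 263 CPM on azide, against 323, 301 and 305 CPM on water. The ranges overlapped between azide and water in the deletion and did not in wild type, where all azide libraries were lower. Neither change passed the test (log2 -0.12 ± 0.13 in the deletion and -0.17 ± 0.13 in wild type, adjusted p 0.529 and 0.269). The hif-1 transcript was thus not called higher on azide in the groups where genes known as its targets rose, except that centring the libraries on neuron markers turned the wild-type value to 0.64 (adjusted p 0.00225). Between genotypes on azide the log2 difference was -0.20 ± 0.13 (adjusted p 0.234), and without the third replicate of the deletion on azide it was -0.40 (adjusted p 0.0134).

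egl-9, which encodes the prolyl hydroxylase (chromosome V, 10468525-10476463, plus strand), was measured at 23.4, 25.7 and 32.4 CPM in the deletion on azide, against 18.6, 22.9 and 21.3 CPM in the deletion on water. All azide libraries of the deletion lay above its water libraries, and the log2 fold change of 0.38 ± 0.14 missed the threshold (adjusted p 0.0626); without the first replicate of the deletion on azide it was 0.45 and passed (adjusted p 0.0431). Wild type had 20.8, 24.4 and 23.2 CPM on azide, against 22.6, 23.9 and 20.8 CPM on water, and these ranges overlapped (log2 0.02 ± 0.14, adjusted p 0.895).

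vhl-1 encodes the substrate receptor that recognises hydroxylated HIF-1 (chromosome X, 11307369-11308161, plus strand), and it was called lower on azide in wild type. The deletion had 7.44, 5.54 and 6.31 CPM on azide, against 6.87, 6.50 and 5.33 CPM on water, overlapping ranges with a log2 fold change of 0.04 ± 0.19 (adjusted p 0.899). Wild type had 4.04, 4.97 and 3.44 CPM on azide, against 5.98, 6.35 and 6.59 CPM on water, ranges that did not overlap. It fell there by 0.61 ± 0.20 on the log2 scale (adjusted p 0.0189), a direction that turned to 0.21 when the libraries were centred on neuron markers. The azide effects of the genotypes differed by 0.65 ± 0.28, which did not pass the test (adjusted p 0.141), so the call in wild type does not show that the genotypes respond differently. The counts behind vhl-1 were low, at 78 to 163 a library. The fall in wild type was no longer called without the second or the third wild-type water library (adjusted p 0.0522 and 0.058) or without the first or the third wild-type azide library (adjusted p 0.0552 and 0.0871).

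rhy-1, the inhibitor that lies upstream of cysl-1 and egl-9 (chromosome II, 9161385-9163295, plus strand), rose in both genotypes. The deletion had 57.2, 67.1 and 68.0 CPM on azide, against 20.0, 22.2 and 19.1 CPM on water. Wild type had 64.1, 61.1 and 60.1 CPM on azide, against 31.3, 24.7 and 22.9 CPM on water. No azide library of either genotype fell within the range of its water libraries. The log2 fold changes were 1.65 ± 0.12 in the deletion (3.14-fold, adjusted p 1.53e-06) and 1.23 ± 0.12 in wild type (2.35-fold, adjusted p 3.98e-06). The difference between the 2 effects was 0.42 ± 0.17 and missed the threshold (adjusted p 0.124). A protein-coding gene on the opposite strand, W07A12.8, shares exon sequence with rhy-1 in the annotation; it held at most 34 counts in any library, where rhy-1 held at least 365.

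cysl-1, whose product binds EGL-9 (chromosome X, 9952789-9954533, minus strand), had a range in each group that overlapped the range in every other group. Its level in the deletion was 67.9, 72.3 and 92.1 CPM on azide, against 76.1, 81.8 and 72.7 CPM on water. Wild type had 75.3, 75.2 and 74.3 CPM on azide, against 76.9, 65.0 and 68.7 CPM on water. The log2 fold changes for azide were 0.01 ± 0.11 in the deletion and 0.09 ± 0.11 in wild type (adjusted p 0.959 and 0.503). Centring the libraries on ribosomal protein genes or on neuron markers turned the wild-type value into a call, at 0.35 and 0.91 (adjusted p 0.0307 and 0.000137).

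cysl-2 is in the same enzyme family as cysl-1 but encodes a cyanoalanine synthase, which detoxifies cyanide (chromosome II, 14492951-14494419, minus strand). In the deletion it reached 215, 298 and 291 CPM on azide, against 78.0, 84.8 and 79.4 CPM on water. The wild-type libraries had 284, 285 and 260 CPM on azide, against 71.3, 99.7 and 94.3 CPM on water. The lowest azide library was above the highest water library by more than the whole range of the water libraries. The log2 fold changes were 1.73 ± 0.14 in the deletion (3.32-fold, adjusted p 3.37e-06) and 1.64 ± 0.14 in wild type (3.12-fold, adjusted p 1.16e-06). The 2 effects differed by 0.09 ± 0.19 (adjusted p 0.787). Levels of different genes are compared by FPKM, which is per length. Within each library the FPKM of cysl-2 was 3.20 to 4.17 times that of cysl-1 in the deletion on azide, against 1.04 to 1.11 times in the deletion on water. In wild type the ratio was 3.54 to 3.83 on azide, against 0.938 to 1.55 on water, and no scaling between libraries enters it. vnut-1, which shares exon sequence with cysl-2 from the opposite strand, held 531 to 847 counts a library, and the sources used here do not state whether the counting used strand.

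sqrd-1 encodes the sulfide:quinone oxidoreductase, the mitochondrial enzyme that oxidises hydrogen sulfide (chromosome IV, 14220033-14224357, plus strand). Of the 10 genes its change on azide was the largest in both genotypes. It was measured at 22.4, 27.5 and 35.5 CPM in the deletion on azide, against 2.59, 2.39 and 1.78 CPM in the deletion on water. In wild type it was measured at 30.2, 26.9 and 28.6 CPM on azide, against 1.22, 1.99 and 1.75 CPM on water. Water libraries of both genotypes thus held few reads of the gene, with counts of 449 to 692 on azide against 34 to 60 on water in the deletion, and 488 to 647 against 24 to 40 in wild type. The log2 fold changes were 3.65 ± 0.22 in the deletion (12.5-fold, adjusted p 1.97e-07) and 4.11 ± 0.23 in wild type (17.2-fold, adjusted p 5.76e-08). Their difference of -0.46 ± 0.30 did not pass the test (adjusted p 0.325), and the azide levels of both genotypes overlapped.

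nhr-57 encodes a nuclear hormone receptor, and its transcript is widely used to read out HIF-1 activity in worms (chromosome V, 4131937-4134716, plus strand). The deletion had 14.8, 16 and 22.1 CPM on azide, against 4.46, 2.95 and 3.71 CPM on water. Wild type had 11.8, 12.7 and 11.8 CPM on azide, against 4.10, 4.42 and 3.22 CPM on water. It rose by a log2 fold change of 2.25 ± 0.21 in the deletion (4.75-fold, adjusted p 1.1e-05) and of 1.62 ± 0.21 in wild type (3.08-fold, adjusted p 3.1e-05). The 2 effects differed by 0.625, which did not pass the test (adjusted p 0.168). On azide every deletion library lay above every wild-type library, as was so for 24.4% of all genes tested. lgc-1, which overlaps nhr-57 on the same strand, held at most 29 counts a library, where nhr-57 held at least 68.

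F22B5.4, which encodes an uncharacterised protein known as a hypoxia-induced transcript (chromosome II, 8452128-8452671, plus strand), was the least changed of the 5. The deletion libraries had 7.79, 6.50 and 4.36 CPM on azide, against 2.28, 2.51 and 3.61 CPM on water. The wild-type libraries had 5.73, 5.96 and 5.87 CPM on azide, against 3.50, 3.27 and 3.37 CPM on water. The ranges did not overlap in either genotype, and the log2 fold changes were 1.16 ± 0.24 in the deletion (2.23-fold, adjusted p 0.00407) and 0.79 ± 0.24 in wild type (1.73-fold, adjusted p 0.0123). These effects differed by 0.365, which did not pass the test (adjusted p 0.492). The gene held 51 to 156 counts a library. Centring the libraries on body wall muscle markers left the wild-type value at 0.86 and ended the call (adjusted p 0.087).

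**Figure D2:**
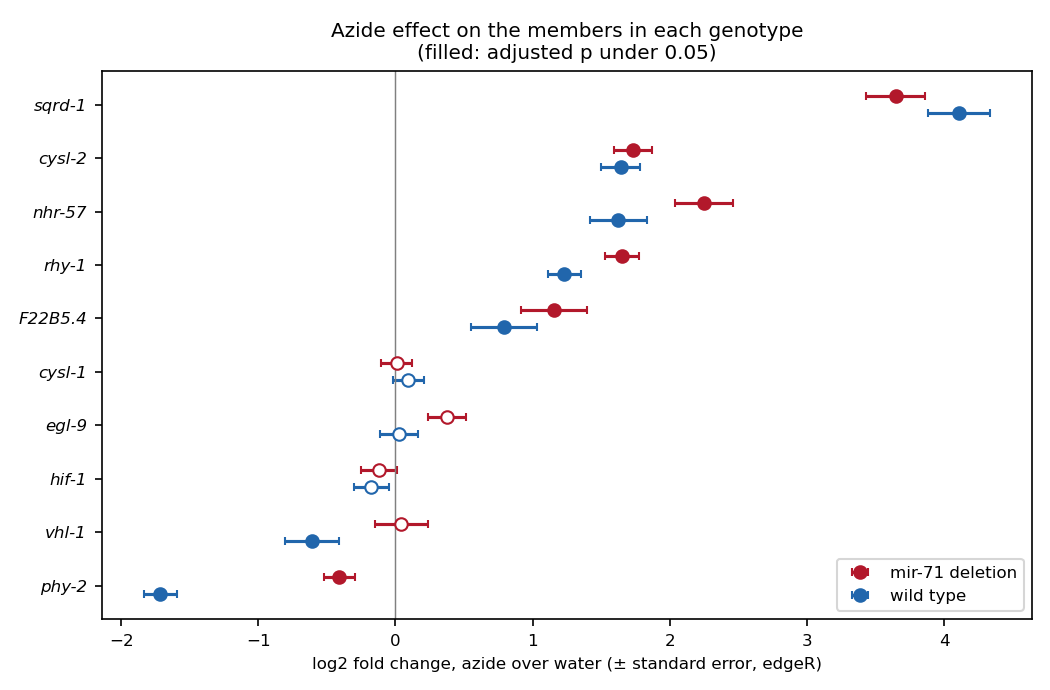
Log2 fold change of azide over water for each gene in the mir-71 deletion (red) and in wild type (blue), with the standard error from edgeR as the bar; filled points have an adjusted p below 0.05. sqrd-1 is farthest to the right, at 3.65 in the deletion and 4.11 in wild type, and phy-2 is the gene whose points lie farthest apart, at -0.41 and -1.71.

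phy-2 was the 1 gene of the 10 whose response to azide differed between genotypes by the test of that difference. It encodes a catalytic subunit of the collagen prolyl 4-hydroxylase, the enzyme that stabilises cuticle collagens (chromosome IV, 12211212-12215986, minus strand). In worms it is also listed among hypoxia-induced, HIF-1-dependent genes. It was measured at 110, 122 and 88.4 CPM in the deletion on azide, against 134, 161 and 130 CPM in the deletion on water. In wild type it was measured at 42, 40.2 and 41.5 CPM on azide, against 131, 142 and 132 CPM on water. The 3 wild-type azide libraries stood alone at the low end, while both water groups overlapped. phy-2 thus fell on azide, where the other response genes rose: by 0.41 ± 0.12 on the log2 scale in the deletion (adjusted p 0.022) and by 1.71 ± 0.12 in wild type (adjusted p 2.96e-07). The difference of the 2 effects was 1.31 ± 0.17 (adjusted p 0.000422), in a test that called 6.67% of all genes tested higher in the deletion and 3.8% lower. The fall in the deletion is the weaker result: without the second deletion water library it was -0.31 (adjusted p 0.092), and 3 of the 5 other scalings of the libraries also ended the call. The difference between genotypes was between 0.82 and 1.40 under the 6 scalings and missed the threshold under 1 of them, centring on neuron markers (adjusted p 0.0919).

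Most other genes of collagen hydroxylation fell on azide beside phy-2 in wild type. Of 5 tested, 2 fell and none was called higher in the deletion on azide, and 4 fell and 1 rose in wild type on azide, with median log2 fold changes of -0.39 and -1.48. Of all genes tested, 11.6% were called lower in the deletion, and 27.1% lower and 27.5% higher in wild type. dpy-18, the other main catalytic subunit of the same enzyme, fell by 0.73 ± 0.14 on the log2 scale in the deletion (adjusted p 0.0025) and by 2.03 ± 0.14 in wild type (adjusted p 3.38e-07). The azide effect differed between genotypes by 1.30 ± 0.20 for dpy-18, by 1.08 ± 0.21 for pdi-2, the shared disulfide isomerase subunit, and by 0.68 ± 0.16 for let-268, a collagen lysyl hydroxylase (adjusted p 0.00134, 0.00677 and 0.0205). Centring on neuron markers ended these calls, at 0.79, 0.58 and 0.15 (adjusted p 0.093, 0.19 and 0.736). That of let-268 was also lost under muscle and ribosomal centring and without the first wild-type water library, the first or the second wild-type azide library or the second deletion azide library (0.58 to 0.64, adjusted p 0.0529 to 0.0604). The fall of let-268 in the deletion (-0.347 ± 0.115, adjusted p 0.0428) was lost without any 1 of 9 of the 12 libraries. It was also lost with the replicate block, with fits of the 2 groups alone and under neuron, muscle and ribosomal centring. phy-4 fell in wild type by 2.62 ± 0.84 on at most 18 counts a library, and phy-3 rose there by 0.63 ± 0.23 (adjusted p 0.0169 and 0.035). The phy-3 call was lost without any 1 of the 6 wild-type libraries (adjusted p 0.0629 to 0.0791) and with upper-quartile factors (0.48, adjusted p 0.0865), and that of phy-4 without the second wild-type water or azide library (adjusted p 0.0626 and 0.0618). The FPKM of phy-2 was 0.409 to 0.550 of that of dpy-18 in the deletion on azide, against 0.307 to 0.451 in the deletion on water. In wild type this ratio was 0.421 to 0.437 on azide, against 0.329 to 0.373 on water, so it moved less than either gene.

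Lists for the hypodermis, the tissue that makes the cuticle, and for the molting cycle moved in the same pattern. The 9 hypodermis markers summed to 2912 to 4635 CPM in the deletion on azide, against 7664 to 8384 CPM in the deletion on water, and to 1364 to 1443 CPM in wild type on azide, against 8021 to 9058 CPM in wild type on water. The 11 molting-cycle genes summed to 2471 to 3556 CPM in the deletion on azide, against 3505 to 4348 CPM in the deletion on water, and to 740.9 to 761.4 CPM in wild type on azide, against 4003 to 5298 CPM in wild type on water. Of the hypodermis markers 7 of 9, and of the molting-cycle genes 8 of 11, had an azide effect called higher in the deletion than in wild type. Of all genes tested 6.67% did. No marker of either list was at 0 in every library. The part of either list in the phy-2 result was not tested.

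**Figure D3:**
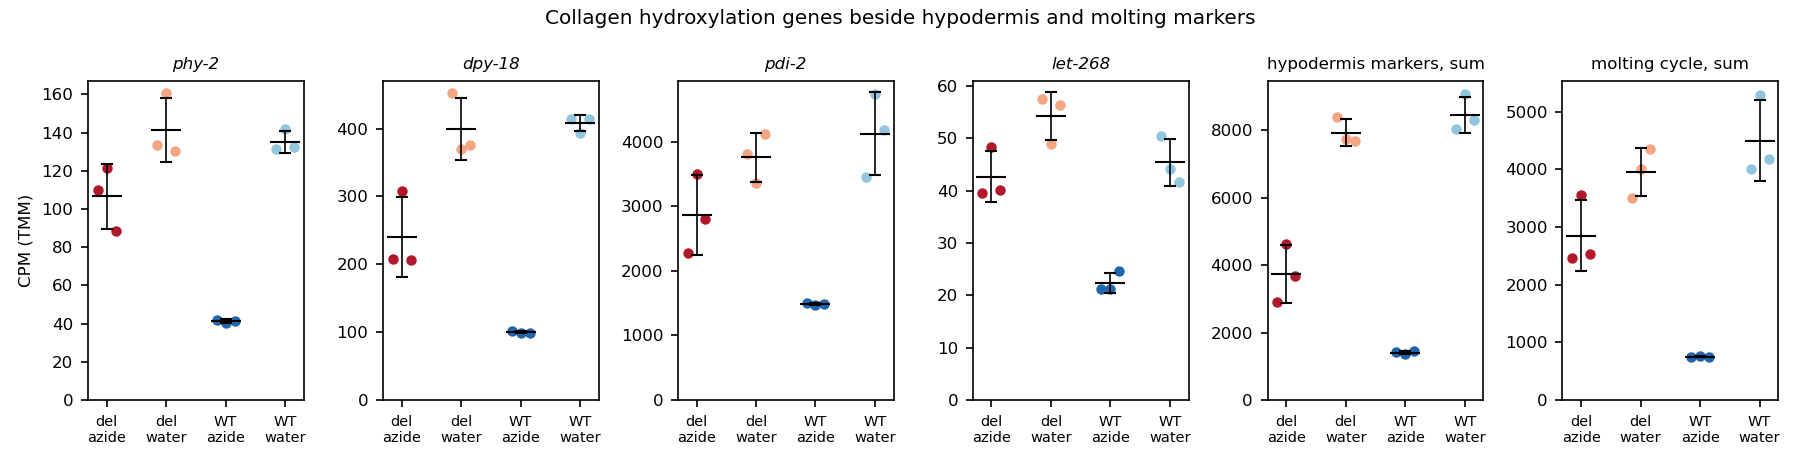
Level of phy-2, dpy-18, pdi-2 and let-268 and the summed level of 9 hypodermis markers and of 11 molting-cycle genes in each library (points; CPM after TMM scaling, each vertical axis from 0), with the group mean and SD (bars, 3 libraries a group). In all 6 panels wild type on azide is lowest, with phy-2 at 40.2 to 42 CPM and the hypodermis sum at 1364 to 1443 CPM.

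Deletion and wild type were then compared directly under each condition; these comparisons share their libraries with the azide comparisons above, so they are not separate evidence. On water none of the 10 genes was called by edgeR (1 had an unadjusted p below 0.05, and DESeq2 called 0), where 0.744% of all genes tested were called higher and 0.758% lower in the deletion. The log2 differences on water ran from -0.36 ± 0.12 for rhy-1 (adjusted p 0.17) to 0.45 ± 0.24 for sqrd-1 (adjusted p 0.434). For 2 of the 10 genes the deletion libraries on water all lay below the wild-type ones and for none above, where the shares over all genes tested were 12.6% and 10.3%. They were rhy-1, at 19.1 to 22.2 against 22.9 to 31.3 CPM, and hif-1, at 242 to 269 against 301 to 323 CPM.

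On azide 3 of the 10 genes were called higher in the deletion and none lower, where 20.1% of all genes tested were called higher and 18.7% lower. The libraries of the same 3 genes lay wholly above those of wild type and those of none lay wholly below, against 24.4% and 26.5% of all genes tested. The largest difference was that of phy-2, at 1.37 ± 0.12 (2.59-fold, adjusted p 6.17e-06). vhl-1 was higher by 0.63 ± 0.20 (adjusted p 0.0223) and nhr-57 by 0.55 ± 0.19 (adjusted p 0.0393), and both directions turned, to -0.09 and -0.22, when the libraries were centred on neuron markers. The nhr-57 call was lost without any 1 of the wild-type azide libraries (adjusted p 0.104, 0.08 and 0.105) and without the third deletion azide library (0.32, adjusted p 0.161). The vhl-1 call was lost without the first or the third wild-type azide library (adjusted p 0.0663 and 0.0962) and without the first deletion azide library (adjusted p 0.0854). Of the genes that azide raised, the other 4 were not called between genotypes, with differences of 0.05 ± 0.12 for rhy-1, -0.04 ± 0.14 for cysl-2, -0.01 ± 0.18 for sqrd-1 and 0.09 ± 0.23 for F22B5.4 (adjusted p 0.742, 0.829, 0.978 and 0.791). Under neuron-marker centring rhy-1, cysl-2 and sqrd-1 were called lower in the deletion, at -0.67, -0.78 and -0.76 (adjusted p 0.00425, 0.00561 and 0.00849). F22B5.4 was not called (-0.58, adjusted p 0.126), and the median of all genes tested was -0.68 there.

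As ratios to hif-1 within each library, which need no scaling between libraries, sqrd-1 and nhr-57 were also compared. The FPKM of sqrd-1 over that of hif-1 was 0.205, 0.194 and 0.207 in the deletion on azide, against 0.0164, 0.0168 and 0.0112 in the deletion on water. In wild type the same ratio was 0.178, 0.168 and 0.184 on azide, against 0.00634, 0.0112 and 0.00971 on water. For nhr-57 over hif-1 the ratio was 0.170, 0.142 and 0.163 in the deletion on azide, against 0.0874, 0.0993 and 0.0953 in wild type on azide. Both ratios were higher in every deletion library on azide than in any wild-type library on azide. The same held for 7 of the 9 ratios to hif-1, among them those of egl-9 (0.113 to 0.133 in the deletion on azide, against 0.076 to 0.0948 in wild type on azide) and cysl-1 (0.705 to 0.855 against 0.610 to 0.661), neither of which was called on azide. The ratios of cysl-2 and F22B5.4 overlapped. All 9 ratios share hif-1 as denominator, so their separations are not independent, and no share over all genes is given for such ratios. By CPM on azide, the deletion libraries lay wholly above the wild-type ones for 3 of the listed genes and overlapped them for 7. Of all genes tested, 24.4% lay wholly above by CPM. sqrd-1 itself differed by -0.01 between genotypes on azide, and hif-1, the denominator, was lower in the deletion by a difference that was not called (-0.20). Among the deletion libraries on azide, hif-1, sqrd-1, egl-9, rhy-1, cysl-1 and nhr-57 were lowest by CPM in the first and highest in the third replicate. The order was another for vhl-1, cysl-2, phy-2 and F22B5.4, so it is not particular to hif-1 and sqrd-1.

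Ranked per length by the authors' FPKM, the order of the genes changed with azide. On azide cysl-2 was at the top in both genotypes, at 289 ± 32.7 FPKM in the deletion and 263 ± 6.72 FPKM in wild type (SD, n = 3), followed by hif-1 at 108 ± 16.5 and 110 ± 4.51 FPKM and cysl-1 at 82.6 ± 9.05 and 70.5 ± 1.54 FPKM. On water hif-1 was at the top, at 109 ± 3.07 FPKM in the deletion and 120 ± 5.06 FPKM in wild type, with phy-2, cysl-2 and cysl-1 next. These lay within 75.7 to 88.4 FPKM in the deletion and 63.8 to 81.3 FPKM in wild type, and phy-2 and cysl-2 differed by less than the larger of their SDs in both. sqrd-1 was the lowest of the 10 on water, at 1.61 ± 0.312 FPKM in the deletion and 1.08 ± 0.260 FPKM in wild type, and ranked 6 on azide, at 21.9 ± 3.65 and 19.5 ± 1.38 FPKM. Among all genes tested sqrd-1 thus stood at percentile 63.3 in the deletion on azide, against 15.2 on water, and at percentile 62.5 in wild type on azide, against 12.5 on water. vhl-1, egl-9, F22B5.4 and nhr-57 lay between 3.25 and 17.1 FPKM in every group.

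Beyond the 10 genes, 5 lists of the same biology were counted, 51 of their 56 genes being tested. Their counts on azide stand beside 12.3% of all genes tested called higher and 11.6% lower in the deletion, and 27.5% and 27.1% in wild type. Of 6 genes that encode the HIF-1 partner AHA-1, the other parts of the VHL ligase and SWAN-1, none was called in the deletion on azide and 2 rose in wild type on azide (medians -0.09 and 0.09). The 2 were rbx-1 and cul-2, the ring and scaffold of the ligase, at 0.36 ± 0.12 and 0.24 ± 0.09 (adjusted p 0.0212 and 0.029). Upper-quartile scaling and leaving out single wild-type libraries ended both calls, rbx-1 having an adjusted p of 0.11 without the second azide library and cul-2 of 0.104 without the first water library.

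Of 8 other genes known from hypoxia or HIF-1 work, 3 rose and 1 fell in the deletion on azide, and 3 rose and 2 fell in wild type on azide (medians 0.05 and -0.05). This list was not split by the direction in which HIF-1 moves each gene, so its counts and medians are no measure of HIF-1 activity. gst-19, a glutathione S-transferase, rose by 3.06 ± 0.30 in the deletion and 3.57 ± 0.33 in wild type (adjusted p 2.06e-05 and 2.49e-06). It stood at 5.56 ± 0.655 CPM in the deletion on azide against 0.664 ± 0.266 CPM on water, and 4.37 ± 0.611 CPM in wild type on azide against 0.363 ± 0.0868 CPM on water (SD, n = 3). nit-1, a nitrilase, rose by 2.22 ± 0.20 and 1.96 ± 0.20 (adjusted p 8.38e-06 and 4.59e-06). cyp-36A1, a cytochrome P450 that acts downstream of HIF-1 in worms, rose in both genotypes. It stood at 13.1 ± 3.27 CPM in the deletion on azide against 7.45 ± 0.849 CPM on water, and 21.8 ± 2.27 CPM in wild type on azide against 6.59 ± 0.383 CPM on water. Its azide effect in the deletion was smaller by a difference of -0.91 ± 0.26 (adjusted p 0.0426) and was lost without any 1 of 10 of the 12 libraries. The genes that fell store iron or import metals. smf-3, a metal transporter, fell by 0.65 ± 0.17 in the deletion (adjusted p 0.0166), and the ferritins ftn-1 and ftn-2 fell by 0.73 ± 0.26 and 0.63 ± 0.08 in wild type (adjusted p 0.0267 and 4.27e-05), where neuron-marker centring turned both ferritins, to 0.10 and 0.18.

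The sulfide and cysteine list was split. Of 13 genes tested, 4 rose and 3 fell in the deletion on azide, and 5 rose and 5 fell in wild type on azide (medians 0.20 and 0.14). The persulfide dioxygenase gene ethe-1, whose product acts after SQRD-1 in sulfide oxidation, rose by 1.24 ± 0.21 in the deletion and 0.98 ± 0.21 in wild type (adjusted p 0.00116 and 0.00147). cth-1, a cystathionine gamma-lyase, rose by 1.21 ± 0.14 in wild type (adjusted p 1.2e-05). cbs-2, a cystathionine beta-synthase, fell by 0.69 ± 0.16 in the deletion and 1.87 ± 0.17 in wild type (adjusted p 0.0081 and 2.07e-06), and the difference between these effects was 1.18 ± 0.23 (adjusted p 0.00697). mpst-7, a mercaptopyruvate sulfurtransferase, rose by 1.17 ± 0.25 in the deletion and fell by 0.63 ± 0.25 in wild type (adjusted p 0.00453 and 0.0477), and the difference was 1.80 ± 0.35 (adjusted p 0.00666). The fall in wild type turned to 0.17 under neuron-marker centring and was lost with DESeq2 size factors (-0.60, adjusted p 0.0569), under muscle and ribosomal centring, and without any 1 of 7 libraries: all but the third wild-type azide library among the 6 of wild type, and the first or the second deletion azide library (adjusted p 0.0544 to 0.151). Neuron-marker centring ended the call of the difference for cbs-2 (0.68, adjusted p 0.192) and mpst-7 (1.25, adjusted p 0.0515), and muscle centring for cbs-2 (1.34, adjusted p 0.0804).

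Of 19 glycolysis genes, which hypoxia raises through HIF in many animals, 7 rose and 1 fell in the deletion on azide, and 11 rose and 2 fell in wild type on azide (medians 0.25 and 0.29). The glyceraldehyde-3-phosphate dehydrogenase genes gpd-1 and gpd-4 rose most, by 1.03 ± 0.28 and 0.84 ± 0.22 in the deletion (adjusted p 0.0243 and 0.0175) and by 1.80 ± 0.28 and 1.57 ± 0.22 in wild type (adjusted p 0.000356 and 0.000119). They are near-identical copies, so how reads were divided between them is uncertain. The calls in the deletion were lost without any 1 of 4 of the 12 libraries for gpd-1 and of 3 for gpd-4. Its first azide library was among them for both (adjusted p 0.0933 for gpd-1 and 0.0604 for gpd-4). Fits of the 2 groups alone also ended both calls (adjusted p 0.095 and 0.0867), and the replicate block that of gpd-1 (adjusted p 0.0513). hxk-1, a hexokinase, had the 1 azide effect of this list that differed between genotypes, by -0.74 ± 0.19 (adjusted p 0.0248), a call lost without any 1 of 7 of the 12 libraries. pyk-2, a pyruvate kinase, fell by 0.37 ± 0.10 and 0.47 ± 0.10 (adjusted p 0.0195 and 0.0017), the second turning to 0.35 under neuron-marker centring, and pfk-1.2, a phosphofructokinase, fell by 1.31 ± 0.21 in wild type (adjusted p 0.000194).

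**Figure D4:**
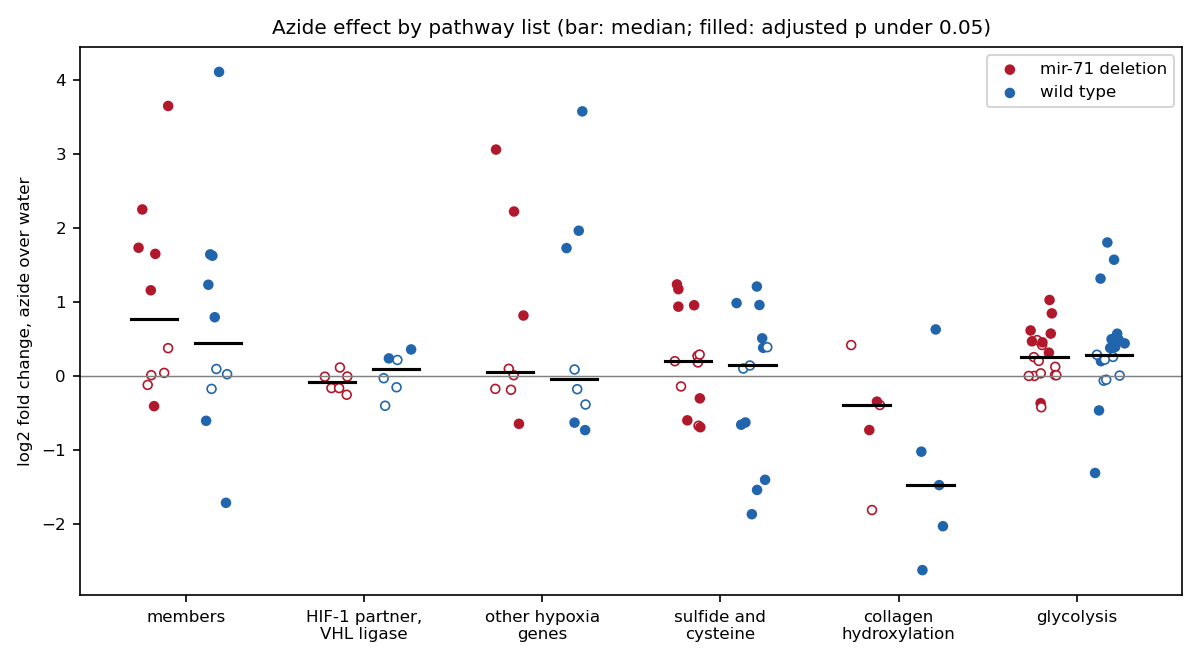
Log2 fold change of azide over water for each gene of the list of 10 ("members") and of the 5 further lists, in the mir-71 deletion (red) and in wild type (blue); filled points have an adjusted p below 0.05 in edgeR and black bars are medians. Collagen hydroxylation has the lowest medians, at -0.39 in the deletion and -1.48 in wild type, and the 10 genes the highest, at 0.77 and 0.44.

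The lists were also counted between genotypes on azide, where 20.1% of all genes tested were called higher and 18.7% lower. Of the HIF-1 partner and ligase genes 3 of 6 were lower in the deletion, among them cul-2 at -0.40 ± 0.09 and rbx-1 at -0.48 ± 0.12 (adjusted p 0.00279 and 0.00712). Of the 8 other hypoxia or HIF-1 genes none was called higher and 1 lower, cyp-36A1 at -0.73 ± 0.18 (adjusted p 0.00694). Of the collagen hydroxylation genes 3 of 5 were higher, dpy-18 by 1.27 ± 0.14 (adjusted p 3.83e-05) and pdi-2 by 0.95 ± 0.15 (adjusted p 0.000479) among them. Of the sulfide and cysteine genes 4 of 13 were higher, with cbs-2 at 1.38 ± 0.17 and mpst-7 at 1.34 ± 0.25, and 1 was lower, cth-2 at -0.61 ± 0.10 (adjusted p 7.61e-05, 0.00133 and 0.000623). Of the glycolysis genes 1 of 19 was higher, pfk-1.2 at 0.84 ± 0.21, and 4 were lower, with gpd-1 at -1.18 ± 0.28 and gpd-4 at -1.05 ± 0.22 (adjusted p 0.00804, 0.00802 and 0.00347). Some of these calls depended on scaling. Muscle and ribosomal centring ended those of cul-2 (adjusted p 0.0884 and 0.0719) and rbx-1 (adjusted p 0.0806 and 0.0728). Muscle centring also ended that of cyp-36A1 (adjusted p 0.0526). Neuron-marker centring ended those of pdi-2 and mpst-7 (adjusted p 0.391 and 0.0557), and neuron and muscle centring that of pfk-1.2 (adjusted p 0.68 and 0.201). On water no gene of the 5 lists was called by edgeR.

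The 10 genes were also compared by their profile over the 12 libraries, as the root mean square difference of log2 CPM after each gene was centred on its own mean. This is a description in which all libraries share their depth and scaling. The spread of a gene was not scaled, so the size of its changes counts beside their pattern. Genes that vary little therefore lie close together. Among themselves the closest were egl-9 and cysl-1, at 0.17, hif-1 and cysl-1, at 0.22, and rhy-1 and cysl-2, at 0.26. Outside the list the gene nearest to cysl-2 was gst-4, a glutathione S-transferase, at 0.20, followed by cyp-33C9 and clec-66 at 0.22 and 0.23. Nearest to rhy-1 were the catalase gene ctl-1, dod-17 and clec-66, at 0.18 to 0.20. Nearest to nhr-57 were clec-265, F01D5.2 and cyp-34A8, at 0.24 to 0.29, and nearest to F22B5.4 were Y39B6A.43, nfi-1 and F21F3.4, at 0.20 to 0.22. sqrd-1 had no neighbour as close: drd-50, F49F1.7 and F17E9.4 followed at 0.37 to 0.50. ctl-1, for example, averaged 68.7 CPM in the deletion on azide and 22 CPM on water, and 53.9 CPM in wild type on azide and 25.7 CPM on water, close to the levels of rhy-1.

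**Figure D5:**
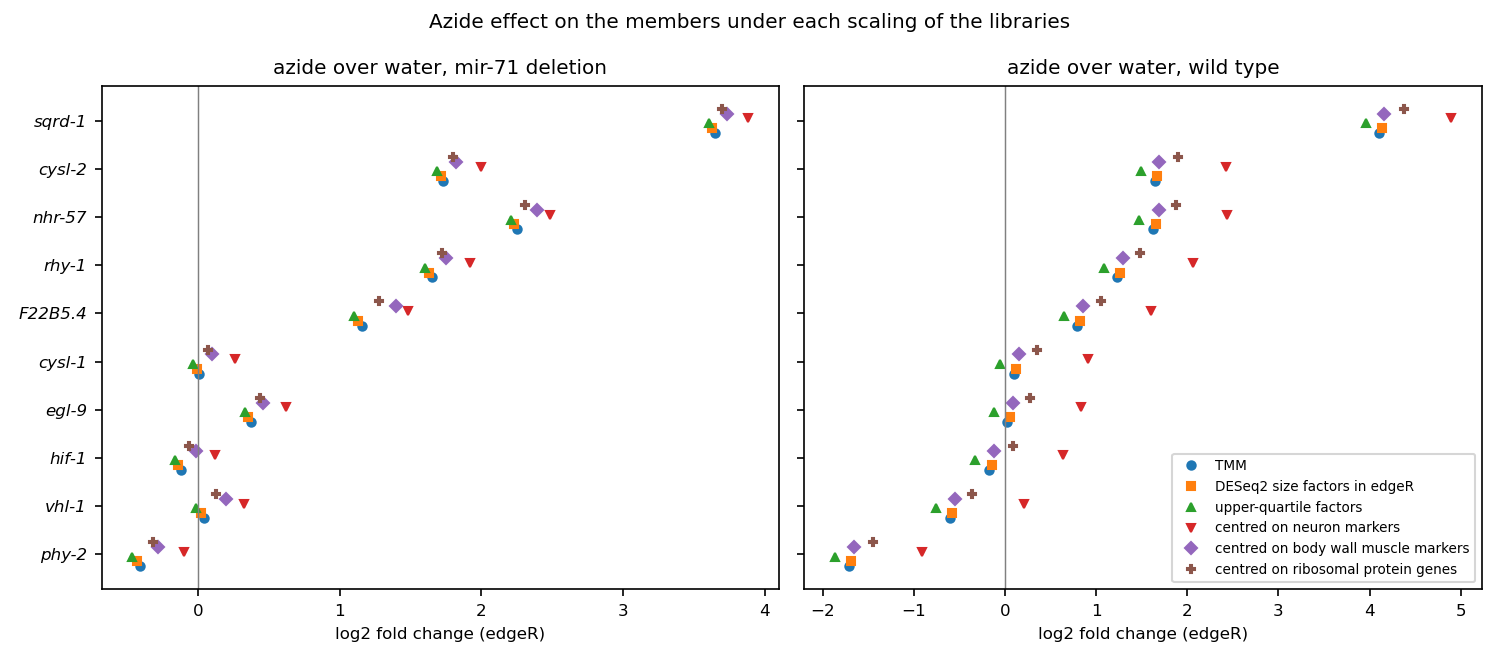
Log2 fold change of azide over water for each gene under 6 ways to scale the libraries, in the mir-71 deletion (left panel) and in wild type (right panel), all fitted with edgeR. sqrd-1, cysl-2, nhr-57, rhy-1 and F22B5.4 lie right of 0 and phy-2 left of 0 under every scaling, while hif-1 in wild type runs from -0.32 to 0.64 and vhl-1 in wild type from -0.76 to 0.21.

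How the libraries are put on one scale moved all genes together. Of the neuron markers, 13 of 20 fell in wild type on azide, where 27.1% of all genes tested were called lower. None was called in the deletion, where 11.6% were called lower. For none of the 20 was the azide effect called different between genotypes. Centring on them moved the median azide effect of all genes to 0.31 in the deletion and 0.76 in wild type, and the median deletion effect on azide to -0.68. Relative to the median of all genes the values of the 10 genes hardly moved: over the 6 scalings sqrd-1 in wild type stayed within 4.13 to 4.17, phy-2 in wild type within -1.67 to -1.66, and the difference of the phy-2 effects within 1.24 to 1.30. That follows from the measure, because a change of scaling moves all genes of a comparison by nearly the same amount. It is therefore no test of how the calls depend on scaling.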

How the data were processed

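Poly(A) RNA of 12 whole-animal libraries was sequenced in pairs of reads. Per the study's methods and the submitters' processing notes, the authors trimmed reads with cutadapt 1.9.1, aligned them with HISAT2 2.0.1 to WBcel235 and counted them per gene with HTSeq 0.6.1. The deposited table holds the authors' raw counts and, beside them, the authors' FPKM, which is the count divided by the gene size in bases and the library total; 95.4% of the deposited sizes are multiples of 3, so they are coding lengths. The sources used here do not state whether counting used strand. Total counts ran from 16828108 to 23937993, with n = 3 libraries a group.

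The raw counts were fitted with edgeR 4.0.16 (R 4.3.3; TMM, filterByExpr with a minimum count of 10 and a minimum total of 15, robust quasi-likelihood F-test, two-sided) with one mean for each of the 4 groups over all 12 libraries, and p-values were adjusted over the 15048 genes tested. The design follows the study's groups; its own tool, DESeq2 (version 1.42.0 here), was an alternative. SE is the log2 fold change over the square root of F. FPKM was used for levels between genes and ratios within a library. The fit was tested on simulated data with 200 changed genes. Alternatives were other size factors, centring on neuron, body wall muscle or 81 ribosomal protein genes, no filter, a replicate block, fits of the 2 groups alone and leaving out each library.

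Genes named were the 10 members, up to 2 with the largest rise and 2 with the largest fall past the threshold for each list and comparison, those of the lists called in the interaction, ppfr-1, and the 3 nearest in profile to each of 5 members; genes that overlap a member were named after their values were seen. The members and lists were chosen with earlier results of these data known. No list-wide test was run. Of the list genes, sqrd-2 was not analysed here, and fmo-2, mpst-2, mpst-5 and mpst-6 were below the filter.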

Additional observations from a re-analysis of the deposited data

Results flagged for a closer look

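The effect of azide differed between the genotypes, by edgeR's test of the difference itself, for 1 of the 10 genes, phy-2, and for 8 of the 51 genes tested of the further lists. Of all genes tested, this test called 6.67% higher in the deletion and 3.8% lower. The difference is the azide effect in the deletion minus that in wild type on the log2 scale, with 3 libraries in each of the 4 groups. It was positive for mpst-7 (1.80), phy-2 (1.31), dpy-18 (1.30), cbs-2 (1.18), pdi-2 (1.08), let-268 (0.68) and ftn-2 (0.44), and negative for cyp-36A1 (-0.91) and hxk-1 (-0.74). The adjusted p-values were 0.000422 for phy-2, 0.00134 for dpy-18, 0.00666 for mpst-7, 0.00677 for pdi-2, 0.00697 for cbs-2, 0.0205 for let-268, 0.0248 for hxk-1, 0.0312 for ftn-2 and 0.0426 for cyp-36A1. Centring the libraries on neuron markers ended the calls for mpst-7 (1.25, adjusted p 0.0515), dpy-18 (0.79, adjusted p 0.093), phy-2 (adjusted p 0.0919), cbs-2 (0.68, adjusted p 0.192), pdi-2 (0.58, adjusted p 0.19) and let-268 (0.15, adjusted p 0.736). Muscle-marker centring ended those for cbs-2, let-268, cyp-36A1, hxk-1 and ftn-2 (adjusted p 0.0804, 0.466, 0.566, 0.641 and 0.661), and that for let-268 was not called without any 1 of 4 of the 12 libraries. The difference for ftn-2 turned to -0.09 under neuron-marker centring and was not called without any 1 of 8 of the 12 libraries, and those for cyp-36A1 and hxk-1 were not called without any 1 of 10 and of 7 libraries. Ribosomal centring ended the calls for let-268, hxk-1 and ftn-2 (adjusted p 0.166, 0.062 and 0.227). The replicate block ended those for cyp-36A1 and ftn-2 (adjusted p 0.0608 and 0.0583). Upper-quartile factors ended that for cyp-36A1 (adjusted p 0.0689), and DESeq2 size factors that for ftn-2 (adjusted p 0.0561).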

How the results depend on the processing

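In both genotypes the rises of sqrd-1, cysl-2, nhr-57 and rhy-1 on azide, and the fall of phy-2 in wild type, kept their direction and stayed past the threshold under every alternative run, including each of the 12 libraries left out. F22B5.4 did so in the deletion, and in wild type missed the threshold under centring on body wall muscle markers. Of the values of the 10 genes that changed, 48 came from centring on neuron markers, muscle markers or ribosomal protein genes, 39 from leaving out a library and 18 from other alternatives. Centring on neuron markers reversed hif-1 (0.64) and vhl-1 (0.21) for azide in wild type, and for the deletion on azide vhl-1 (-0.086), nhr-57 (-0.22), egl-9 (-0.50), rhy-1 (-0.67) and cysl-1 (-0.70). It also reversed ftn-1 (0.10), ftn-2 (0.18), mpst-7 (0.17) and pyk-2 (0.35) for azide in wild type and the difference between genotypes for ftn-2 (-0.093). Under it, 0 of the 10 genes were called lower for azide in the deletion, 8 higher and 1 lower for azide in wild type, 1 higher and 6 lower for the deletion on azide, and 0 in the difference between genotypes. Centring on muscle markers or on ribosomal protein genes gave 0 genes lower for azide in the deletion and 1 for azide in wild type, and muscle centring gave 1 higher for the deletion on azide. Fits of the 2 groups alone gave 0 lower for azide in the deletion. Leaving out one library at a time gave 0 to 1 genes lower for azide in the deletion, 1 to 2 lower for azide in wild type, and 1 to 3 higher and 0 to 1 lower for the deletion on azide. Beyond centring, the deletion effect on azide was lost for nhr-57 with DESeq2 size factors (0.51, adjusted p 0.0562) and for vhl-1 with the 2 groups alone (0.65, adjusted p 0.0606), and gained for egl-9 with upper-quartile factors (0.39, adjusted p 0.0487). The causes were not tested. Of 1040 values of the 10 genes under alternatives, 935 kept direction and side of the threshold.

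The counts showed no clear pairing of the libraries by replicate number: the correlations of same-numbered deviations ran from -0.107 to 0.165, and 15 of 36 comparisons of a library with another group were best at its own number. These values cannot show whether same-numbered libraries were grown or prepared together. With the replicate block, 5 genes were higher and 1 lower for azide in the deletion, 5 and 2 for azide in wild type, 0 and 0 for the deletion on water, 2 and 0 for the deletion on azide, where nhr-57 had 0.54 (adjusted p 0.0651), and 1 and 0 in the difference.

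Counts over all genes moved more. Genes called higher and lower were 1856 and 1744 for azide in the deletion, and 774 to 2098 and 491 to 2165 under alternatives other than leaving out a library; for azide in wild type 4138 and 4079, and 2402 to 8402 and 1146 to 5057; for the deletion on water 112 and 114, and 12 to 511 and 43 to 316; for the deletion on azide 3024 and 2820, and 819 to 3845 and 1202 to 7995; and for the difference 1003 and 572, and 238 to 1260 and 58 to 1351. The share of called genes that were higher was 51.6% for azide in the deletion (80.7% with neuron, 65.15% with muscle and 64% with ribosomal centring), 50.4% for azide in wild type (39.9% with upper-quartile factors, 88.0% with neuron and 68.0% with ribosomal centring), 51.7% for the deletion on azide (67.7% with upper-quartile factors, 9.29% with neuron and 69.5% with ribosomal centring) and 49.6% for the deletion on water (12.77% to 92.2%). For azide, leaving out any 1 of 3 libraries ended the call of ftn-1 in wild type, and any 1 of 2 that of smf-3 in the deletion. Low counts limit vhl-1, F22B5.4 and, on water, sqrd-1 and nhr-57.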
